A study of Mus musculus with 4 samples.

Results

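The RIG-I-like receptors and the MAVS pathway were followed in activated mouse B cells through 8 genes, chosen by name among the 55401 genes of the deposited table: the receptors Ifih1, Ddx58 and Dhx58, the ubiquitin ligase Trim25, the adaptor Mavs, the ligase Traf3 and the kinases Tbk1 and Ikbke. All 8 were found, Ddx58 under that symbol, and all 8 were among the 14180 genes with enough counts to be tested. Poly(A) RNA of C57BL/6 splenic B cells, enriched with anti-CD43 beads and kept in culture for 36 h under anti-IgM (10 µg/ml) and anti-CD40 (1 µg/ml), was sequenced in 4 libraries. There were 2 libraries of wild-type mice and 2 of mice labelled Adar1 cKO, a conditional knockout in B cells, and both genotypes received the same stimulation. Adar1 is the older name of Adar, whose product edits adenosine to inosine in double-stranded RNA. The labels give no Cre driver, no deleted exons, no age of the mice and no statement that libraries came from separate mice or cultures, so p-values measure the spread between these libraries, which may in part be technical.

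MDA5, RIG-I and LGP2, the products of Ifih1, Ddx58 and Dhx58, are cytosolic helicases that bind double-stranded RNA. MDA5 and RIG-I pass the signal on through their caspase recruitment domains to MAVS on the mitochondrial membrane, while LGP2 lacks these domains and modulates the other receptors. MAVS recruits TRAF ligases and the kinases TBK1 and IKK-epsilon, which activate IRF3 and IRF7 and so the genes of type I interferon. Interferon in turn induces several genes of the pathway, the receptors among them. Unedited cellular double-stranded RNA is a known ligand of MDA5 where ADAR1 is missing, which is why the receptor pathway is of interest in this knockout.

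Total counts per library lay between 17327480 and 19669651. Adar itself stood at 16.82 and 18.47 FPKM in wild type, against 26.86 and 28.65 FPKM in the other libraries (fragments per kilobase of exon, scaled to the library's total), a log2 change of 0.65 ± 0.0627 (SE, n = 2 libraries per genotype; adjusted p = 3.39e-08, the quasi-likelihood test of edgeR, adjusted by Benjamini and Hochberg's method). Because the deleted exons are not given, counts over the whole gene cannot show whether the deletion took place. The libraries are therefore called cKO-labelled, and each direction below is drawn from that label. Chrnb2 overlaps 16.81% of the exon bases of Adar on the opposite strand. Ribosomal RNA genes took 0.525% of the counts of wild-type library 2, against 0.0947% to 0.125% elsewhere. Of 5 B-cell markers (Cd79a, Cd79b, Ms4a1, Pax5 and Cd22) all were abundant in each library, with summed levels of 3216 to 3249 CPM (read counts after scaling for library size) in wild type and 2802 to 2880 CPM in cKO-labelled libraries. Of these markers 4 were called lower, all but Ms4a1.

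The promoter sequences of the receptor genes Ifih1 and Ddx58 show a feature that the choice of the genes by name did not use. RefSeq promoter windows on GRCm38.p6, from 250 bases before to 50 bases after the start of the transcript, were found for 7 of the 8 genes; Dhx58 was not among them. The interferon-stimulated response element (ISRE), the binding element of the STAT and IRF factors that act downstream of interferon, was searched as GAAA, any 2 bases and GAAA again, on both strands. It was found in the windows of Ifih1 and Ddx58 and in none of the other 5. Of all 32851 windows, 3.44% held it. The 30 bases around each match follow, 5′ to 3′ on the strand of the gene, with the match in capitals. The match of Ifih1 begins at base 33 of the transcript and that of Ddx58 at base 3, with the first transcribed base included in the count.
Ifih1, chr2:62646206-62646235, minus strand: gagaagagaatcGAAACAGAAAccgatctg
Ddx58, chr4:40239804-40239833, minus strand: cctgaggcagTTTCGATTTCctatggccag
The 250 bases upstream of both receptors, of Trim25 and of Mavs are given next: among genes with a window the receptors had the largest rises, Trim25 a smaller one, and Mavs did not pass the test. Capitals mark each GAAA or TTTC, the core that the element holds as a repeat. Ddx58 had 7 such cores, Ifih1 had 5, Ikbke had 4, Trim25, Tbk1 and Traf3 had 2 each and Mavs had none, where the median of all windows was 2. At least 7 cores were present in 4.25% of all windows at least 5 in 16.8% and at least 4 in 28.9%. Both receptors with a window had the most cores, and Ddx58 had more than Ifih1 with a smaller rise. Ikbke had more cores than Trim25 and a smaller change. The 250 bases upstream were 50% to 54.4% G and C in Ifih1, Ddx58 and Ikbke, the genes with the most cores. In Trim25, Mavs, Tbk1 and Traf3, with fewer cores, they were 63.2% to 85.2% G and C. Whether the count of cores goes with the change or with base composition was not tested.
Ifih1, chr2:62646256-62646505, minus strand: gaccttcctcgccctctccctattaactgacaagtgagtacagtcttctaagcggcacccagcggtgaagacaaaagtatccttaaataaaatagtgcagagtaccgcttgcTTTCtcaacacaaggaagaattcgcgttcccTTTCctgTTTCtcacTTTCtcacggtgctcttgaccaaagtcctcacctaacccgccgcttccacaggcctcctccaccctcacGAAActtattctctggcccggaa
Ddx58, chr4:40239826-40240075, minus strand: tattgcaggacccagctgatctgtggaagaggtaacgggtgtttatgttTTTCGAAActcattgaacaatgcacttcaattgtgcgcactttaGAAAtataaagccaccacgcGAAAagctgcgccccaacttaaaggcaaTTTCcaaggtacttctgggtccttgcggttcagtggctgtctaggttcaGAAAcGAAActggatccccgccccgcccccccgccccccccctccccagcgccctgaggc
Trim25, chr11:88999153-88999402, plus strand: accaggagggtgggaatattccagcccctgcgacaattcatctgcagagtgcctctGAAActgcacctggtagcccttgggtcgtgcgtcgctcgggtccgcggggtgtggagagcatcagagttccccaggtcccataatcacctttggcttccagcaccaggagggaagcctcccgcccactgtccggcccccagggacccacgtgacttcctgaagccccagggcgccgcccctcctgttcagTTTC
Mavs, chr2:131233813-131234062, plus strand: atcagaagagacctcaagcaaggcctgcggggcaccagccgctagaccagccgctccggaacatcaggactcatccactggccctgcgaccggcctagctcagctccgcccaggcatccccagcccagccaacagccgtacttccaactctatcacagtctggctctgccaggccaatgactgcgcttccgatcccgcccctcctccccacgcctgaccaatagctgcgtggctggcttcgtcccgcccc
In Trim25 the last core is the final 4 bases before the start. The element of NF-kB, the factor family that CD40 and the B-cell receptor activate, was searched as GGGA, any base and TTTCC, on both strands, and was found in none of the 7 windows (0.411% of all windows). A wider form, GGG, any 2 bases and TTTCC, which shares sites with the first and was added after the sequences had been seen, was found in 1.63% of all windows and, of the 7 genes, in Traf3, where it begins 10 bases before the start.
Traf3, chr12:111166350-111166379, plus strand: ggcggcccgcGGGGATTTCCagcgcgcgag
The 250 bases upstream of Traf3 were 85.2% G and C with 49 CpG dinucleotides, those of Tbk1 68.4% with 31, those of Ikbke 54.4% with 4 and those of Ifih1 50% with 11, against medians of 52.4% and 6 over all windows. A match of letters does not show that a factor binds there.

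The comparison of genotypes asks how the transcripts of the pathway differ where Adar1 is labelled as deleted. The 3 receptors rose 2.40-fold to 3.43-fold, Trim25 rose 1.49-fold and Ikbke 1.19-fold, and Mavs, Traf3 and Tbk1 did not pass the test. Thus 5 of the 8 genes were called higher (adjusted p under 0.05 over all genes tested), where 12.2% of all genes tested were, and 0 were called lower, where 9.54% of all genes were. The median log2 change of the 8 genes was 0.42, against -0.0058 over all genes tested. The genotypes did not overlap in CPM for 7 of the 8 genes, Traf3 being the exception, where 57.9% of all genes did not overlap. Over all genes 1727 were called higher and 1353 lower. After each library's trend with GC content had been removed these counts were 1334 and 1806, a fit in which 4 of the 8 genes were called higher. That fit also moved the median log2 change over all genes to -0.0675, so its counts do not reflect the GC trend alone.

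**Figure D1:**
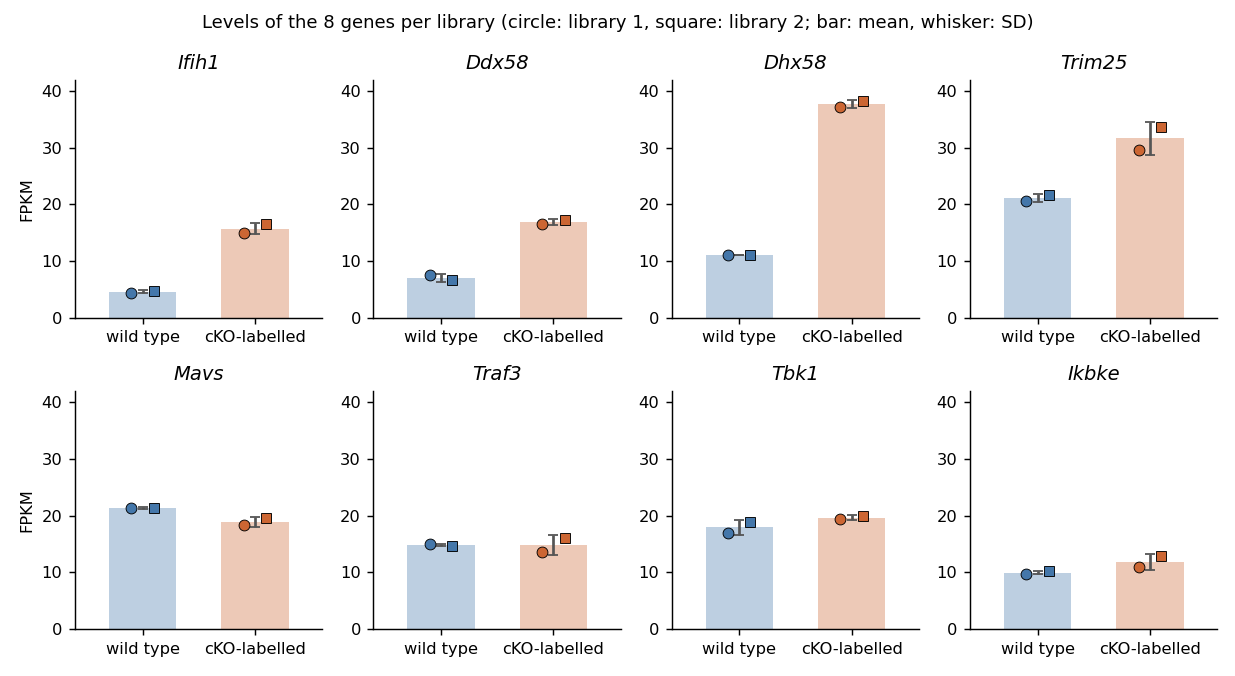
FPKM (vertical axis) of the 8 genes in wild-type (blue) and cKO-labelled (orange) libraries, with library 1 as a circle, library 2 as a square, the mean as a bar and the SD as a whisker. Ifih1, Ddx58, Dhx58 and Trim25 stand clearly higher in both cKO-labelled libraries, and the wild-type and cKO-labelled values of Traf3 overlap.

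Among the receptors, Ifih1 (ENSMUSG00000026896, chromosome 2, 62595798 to 62646255 on GRCm38, minus strand) encodes MDA5, the sensor of long double-stranded RNA. It stood at 4.36 and 4.76 FPKM in wild type, against 15 and 16.44 FPKM in cKO-labelled libraries. The groups lay far apart, and the lowest cKO-labelled value exceeded the highest wild-type value by more than the spread within either genotype. The log2 change was 1.78 ± 0.0713 (SE, n = 2 per genotype), with a 95% interval of 1.63 to 1.93 and an adjusted p = 4.96e-15 (edgeR, quasi-likelihood test). Of all genes tested, 2.19% had a larger rise. In wild type Ifih1 had the lowest level per length of the 8 genes.

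Dhx58 (ENSMUSG00000017830, chromosome 11, 100694884 to 100704271, minus strand) encodes LGP2. Its values were 11.11 and 11.03 FPKM in wild type, against 37.27 and 38.23 FPKM in cKO-labelled libraries, so that libraries of a genotype nearly coincided. The log2 change of 1.76 ± 0.0666 (95% interval 1.63 to 1.9) was nearly that of Ifih1, with an adjusted p of 1.82e-15 by the same edgeR test. An antisense gene, Dhx58os, overlaps 4.31% of the exon bases of Dhx58, and the library kit does not mark the strand, so that reads of the overlap cannot be told apart.

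Ddx58 (ENSMUSG00000040296, chromosome 4, 40203773 to 40239828, minus strand) encodes RIG-I, which recognises short double-stranded RNA with a triphosphate end. It stood at 7.44 and 6.55 FPKM in wild type, against 16.46 and 17.21 FPKM in cKO-labelled libraries. The genotypes did not overlap, and wild-type library 1 was the higher of its pair. The log2 change was 1.26 ± 0.0705 (95% interval 1.12 to 1.41, adjusted p = 2e-12 by the edgeR test), and this interval did not reach those of Ifih1 and Dhx58. Whether the changes of the receptors differ from each other was not tested.

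Within the receptor family the summed level went from 22.9 and 22.3 FPKM in wild type to 68.7 and 71.9 FPKM in cKO-labelled libraries. Dhx58 made up 48.5% and 49.4% of that sum in wild type, against 54.2% and 53.2% in cKO-labelled libraries, so per length it stood highest in each library. This place rests on the deposited exonic lengths, 3272 bases for Dhx58, 8165 for Ifih1 and 7050 for Ddx58. In counts, Dhx58 (630 and 710 in wild type, 2194 and 2183 in cKO-labelled libraries) was near Ifih1 (617 and 764, 2204 and 2342). Ddx58 had 909 and 908 counts in wild type, the most of the receptors there. Ddx58 made up 32.5% and 29.3% in wild type and 23.9% in each cKO-labelled library. The ratio of Dhx58 to Ifih1, per length, was 2.55 and 2.32 in wild type, against 2.48 and 2.33 in cKO-labelled libraries, and these ranges overlap. The ratio of Ddx58 to Ifih1 was 1.71 and 1.38 in wild type, against 1.10 and 1.05 in cKO-labelled libraries, and these do not. With 2 libraries per genotype an exact two-sided permutation test of such a ratio cannot go below p = 0.333, so no test is given.

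Trim25 (ENSMUSG00000000275, chromosome 11, 88999376 to 89020293, plus strand) encodes a ubiquitin ligase described as an activator of RIG-I. It stood at 20.66 and 21.66 FPKM in wild type, against 29.62 and 33.74 FPKM in cKO-labelled libraries. Both cKO-labelled values were above both wild-type values, and they also differed more from each other than the wild-type values did. The log2 change was 0.58 ± 0.0656 (95% interval 0.44 to 0.71, adjusted p = 4.38e-07 by the edgeR test). The ratio of Trim25 to Ddx58 was 2.78 and 3.31 in wild type, against 1.80 and 1.96 in cKO-labelled libraries.

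Mavs (ENSMUSG00000037523, chromosome 2, 131234063 to 131248025, plus strand) encodes the adaptor through which the receptors signal. It stood at 21.27 and 21.43 FPKM in wild type, against 18.29 and 19.55 FPKM in cKO-labelled libraries. The cKO-labelled values were the lower ones without overlap. The log2 change of -0.18 ± 0.0678 (95% interval -0.32 to -0.04) did not pass the test (unadjusted p = 0.0146, adjusted p = 0.0625, edgeR's quasi-likelihood test). Without cKO-labelled library 2 it was -0.23 with an adjusted p of 0.0441, so that it then passed. It also passed with all 4 libraries when the replicate number was added to the fit as a block (-0.18, adjusted p = 0.0456, edgeR). The summed level of the receptors was 1.08 and 1.04 times that of Mavs in wild type, against 3.76 and 3.68 times in cKO-labelled libraries.

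**Figure D2:**
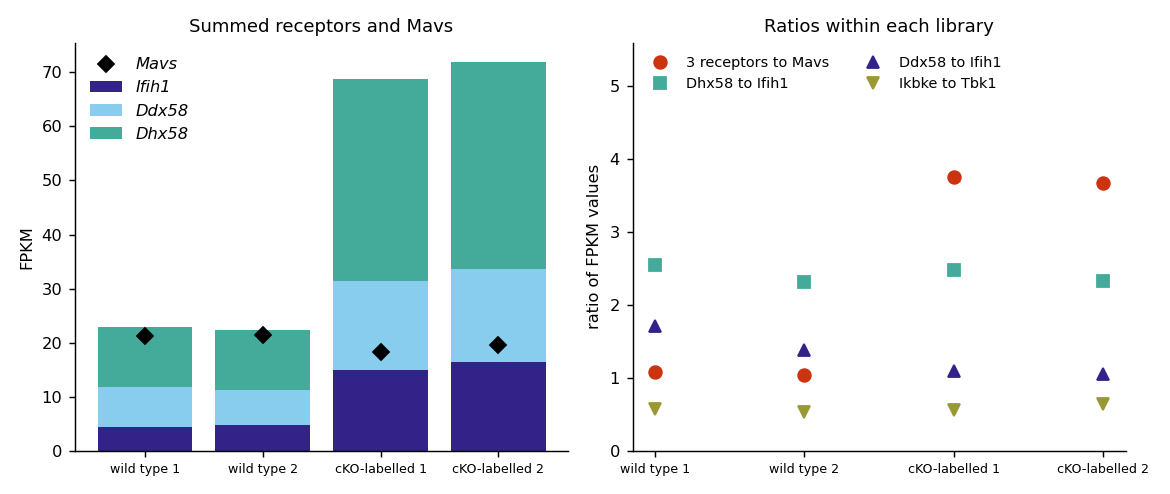
Left, FPKM (vertical axis) of the 3 receptors stacked for each library, with Mavs as a diamond. Right, ratios of FPKM values within each library. The summed receptors are close to Mavs in wild type (ratios of 1.08 and 1.04) and well above it in cKO-labelled libraries (3.76 and 3.68), while the ratio of Dhx58 to Ifih1 overlaps between genotypes.

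Traf3 (ENSMUSG00000021277, chromosome 12, 111166370 to 111267153, plus strand) encodes a ligase that links MAVS to the kinases and that, in B cells, also restrains non-canonical NF-kB signalling below CD40. It stood at 14.95 and 14.63 FPKM in wild type, against 13.63 and 16.04 FPKM in cKO-labelled libraries. The cKO-labelled values lay on either side of the wild-type values. The log2 change was -0.0006 ± 0.0698 (adjusted p = 0.996 by the edgeR test). Its 95% interval of -0.15 to 0.14 corresponds to folds of 0.904 to 1.10.

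Tbk1 (ENSMUSG00000020115, chromosome 10, 121546455 to 121586787, minus strand) encodes the broadly expressed kinase of IRF3. It stood at 16.99 and 18.92 FPKM in wild type, against 19.36 and 19.93 FPKM in cKO-labelled libraries. The genotypes did not overlap, but they lay closer together than the wild-type libraries did to each other. The fold was 1.09 (95% interval 0.988 to 1.20, adjusted p = 0.223 by the edgeR test), so a rise of up to 1.20-fold lies within the interval.

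Ikbke (ENSMUSG00000042349, chromosome 1, 131254343 to 131279606, minus strand) encodes IKK-epsilon, the inducible relative of TBK1. It stood at 9.73 and 10.16 FPKM in wild type, against 10.86 and 12.85 FPKM in cKO-labelled libraries. The cKO-labelled libraries were higher without overlap, and cKO-labelled library 2 was the highest by some distance. The log2 change was 0.25 ± 0.0717 (95% interval 0.10 to 0.40), called higher with an adjusted p of 0.0148 by the edgeR test. The call was lost without cKO-labelled library 2 (0.12, adjusted p = 0.294), without wild-type library 1 (0.21, adjusted p = 0.072), after removal of the GC trend (0.19, adjusted p = 0.0693) and with DESeq2 (0.25, adjusted p = 0.0644). The ratio of Ikbke to Tbk1 per length was 0.573 and 0.537 in wild type, against 0.561 and 0.645 in cKO-labelled libraries, and these ranges overlap. The antisense genes Gm28914 and Gm28913 overlap 1.76% and 0.72% of the exon bases of Ikbke.

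**Figure D3:**
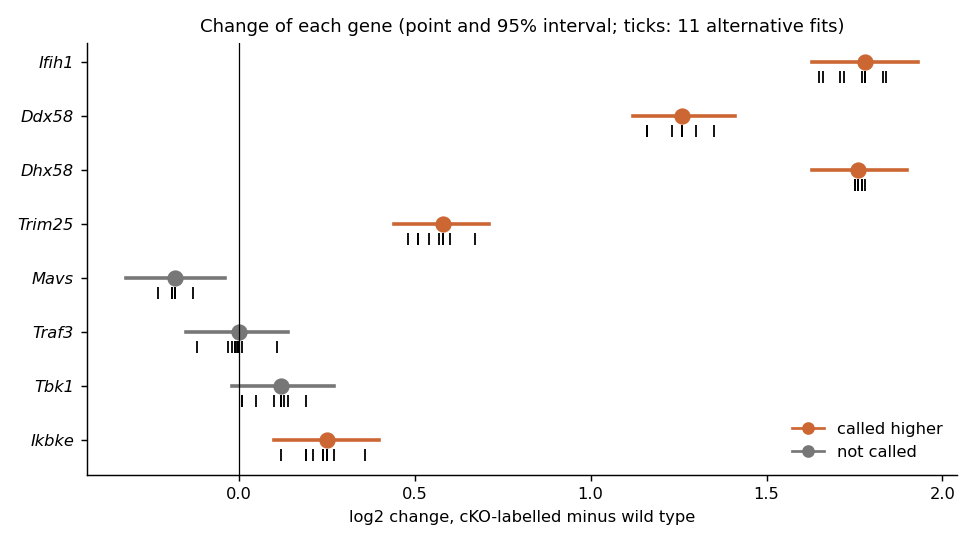
Log2 change, cKO-labelled minus wild type (horizontal axis), of each gene as a point with its 95% interval, and below it as black ticks the values of 11 alternative fits. The receptors (1.26 to 1.78) lie apart from Trim25 (0.58), and the other 4 genes lie between -0.18 and 0.25.

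The order of the 8 genes by level per length differed between genotypes. In wild type it ran from Mavs at 21.35 ± 0.113 FPKM (mean ± SD, n = 2) and Trim25 at 21.16 ± 0.707 through Tbk1, Traf3, Dhx58, Ikbke and Ddx58 to Ifih1 at 4.56 ± 0.283. The libraries of Mavs and Trim25 overlapped there, and no other neighbours did. In cKO-labelled libraries it ran from Dhx58 at 37.75 ± 0.679 FPKM and Trim25 at 31.68 ± 2.91 through Tbk1, Mavs, Ddx58, Ifih1 and Traf3 to Ikbke at 11.86 ± 1.41. Here the neighbours Tbk1 and Mavs overlapped, as did Ifih1 and Traf3. Dhx58 went from the fifth place to the first, and Ifih1 from the last to the sixth. Counts behind these levels ran from 617 to 3388 per gene and library, which gives a counting error of 4.03% to 1.72%.

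Genes with the most similar profile were sought by the Euclidean distance of centred log2 CPM over the 4 libraries, among 9509 genes whose mean reached 5 CPM. For Ifih1 these were Sdc3, a heparan sulfate proteoglycan (distance 0.086), Xaf1, an interferon-inducible partner of the apoptosis inhibitor XIAP (0.0994), and Lilrb4a, an inhibitory receptor (0.106). For Dhx58 they were Lilrb4a (0.055), Lgals3bp, a secreted galectin ligand (0.0556), and Xaf1 (0.0866). For Ddx58 they were the MHC class I gene H2-T24 (0.0629), Cd274, which encodes PD-L1 (0.0945), and Trim30b (0.102). All of these rose, from 1.25 ± 0.107 for Trim30b to 1.82 ± 0.0775 for Xaf1 on the log2 scale. For Trim25 they were Smyd2, Tspan3 and Rab11fip1, at changes of 0.59, 0.60 and 0.58. With 4 libraries in 2 groups, such a profile holds little more than the size of the change.

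Of 102 other genes of the pathway, listed by role, 82 were tested, 23 of them higher and 6 lower, and 53 did not pass. Their median log2 change was 0.08. The called share, 35.4%, stands beside the 21.7% of all genes tested. With the GC trend removed, 17 were called higher and 10 lower, where 1334 and 1806 of all 14180 genes tested were. Promoter windows were at hand for 85 of the 102 genes, and 14 held the ISRE letters: Ddx60, Tomm70a, Ripk1 and, beyond these, Ifna1 and other genes of the interferon-alpha group. Of the 19 genes with a window that were called higher, 2 held them (Ddx60 and Tomm70a). Over all 27025 genes with a window, 3.99% held them.

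Regulators of the receptors numbered 28, of which 5 were higher and 3 lower. This called share of 28.6% stands beside 21.7% of all genes tested. Ddx60, a helicase described as a cofactor of RIG-I, had 115 and 121 counts in wild type, against 625 and 538 in cKO-labelled libraries, a log2 change of 2.35 ± 0.133. Nlrc5, the activator of MHC class I genes that has also been described as an inhibitor of the receptors, rose by 0.62 ± 0.0588. Zc3hav1, an antiviral zinc finger protein, rose by 0.35 ± 0.0576 and Cyld, which trims ubiquitin chains, by 0.36 ± 0.0598. The other higher gene was Rnf135, which encodes the RIG-I ligase Riplet, at 0.43 ± 0.136 (adjusted p = 0.0257 by the edgeR test); it was named after its value had been seen. The lower genes were the ligase gene Stub1 (-0.28), the deacetylase gene Hdac6 (-0.33) and Ppp1ca (-0.18), a subunit of the phosphatase that activates the receptors. Jmjd8 overlaps 42.33% of the exon bases of Stub1 on the opposite strand. Ddx3x, which by CPM was the most abundant gene of the group that did not pass (per length Ywhae stood higher), had a change of 0.14 ± 0.0569.

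Of 25 tested partners and regulators of MAVS, 7 were higher and 1 lower. The called share was 32.0%, where 21.7% of all genes tested were called. The TRAF ligase genes Traf5 and Traf6 rose by 0.75 ± 0.101 and 0.34 ± 0.0657. March5, a mitochondrial ligase that removes MAVS aggregates, rose by 0.48 ± 0.071 and Plk1, a mitotic kinase that binds MAVS, by 0.46 ± 0.0712. C1qbp, a mitochondrial inhibitor of MAVS, was the lower gene at -0.20 ± 0.0591. Pcbp1, an adaptor for the degradation of MAVS, did not pass at -0.10 ± 0.0561.

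Scaffolds and regulators of the kinases numbered 20, of which 8 were higher and 2 lower. The called share was 50.0%, against 21.7% of all genes tested. Tank, a scaffold of TBK1 and IKK-epsilon, stood at 1583 and 1984 counts in wild type, against 2749 and 2440 in cKO-labelled libraries, a rise of 0.60 ± 0.0657. Optn, a ubiquitin-binding partner of TBK1, rose by 0.56 ± 0.0942, the ligase gene Birc2 by 0.29 ± 0.0647 and Tnip1, a partner of A20, by 0.26 ± 0.0667. Dtx4, a ligase described to mark TBK1 for degradation, had 1232 and 1464 counts in wild type, against 679 and 665 in cKO-labelled libraries, a log2 change of -0.95 ± 0.0725. Sike1, a suppressor of IKK-epsilon, was lower at -0.22 ± 0.0788 (adjusted p = 0.0442 by the edgeR test). Birc3 did not pass at -0.06 ± 0.0581. Tbkbp1, at 24 and 19 counts in wild type against 53 and 52 in cKO-labelled libraries, had the largest rise of the list (1.33 ± 0.371). Its adjusted p was 0.0112 by the edgeR test, and it was named after its value had been seen.

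Of 9 transcription factors and coactivators, 3 were higher and 0 lower. That is a called share of 33.3%, beside 21.7% of all genes tested. Irf7, the interferon-inducible factor, stood at 283 and 327 counts in wild type, against 1600 and 1596 in cKO-labelled libraries, a rise of 2.45 ± 0.080. Irf5 rose by 0.34 ± 0.0586 and Jun by 0.48 ± 0.0813. Nfkb1 did not pass at -0.05 ± 0.0556, and neither did Irf3, the substrate of TBK1, at -0.02 ± 0.0616 (Irf3 was named after its value had been seen). Genes on the opposite strand overlap Irf7 (Phrf1, 1.19% of its exon bases), Irf5 (Tnpo3, 14.15%) and Jun (Junos, 7.28%).

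**Figure D4:**
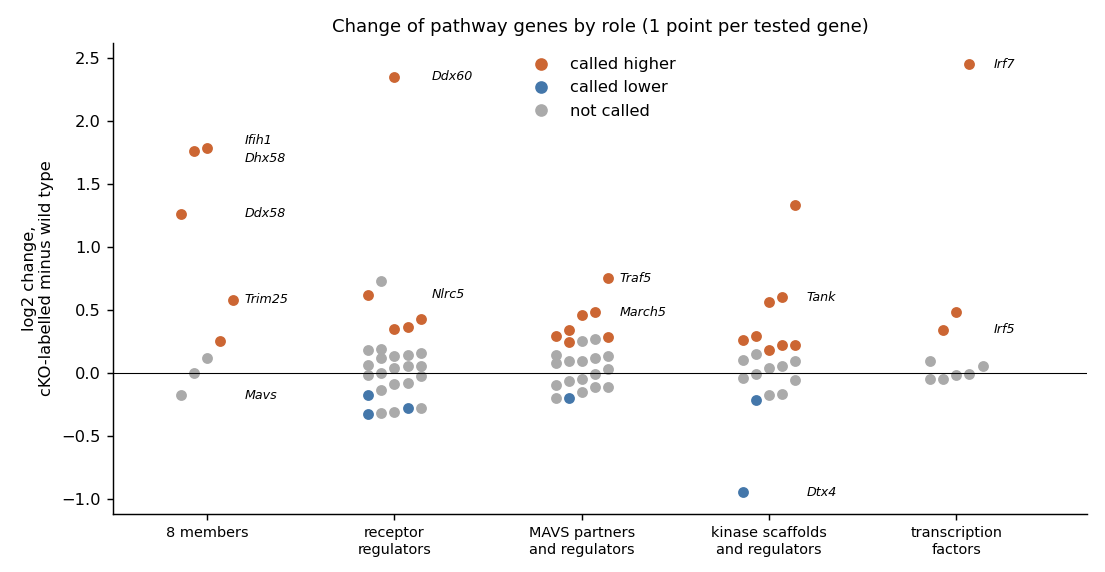
Log2 change, cKO-labelled minus wild type (vertical axis), of each tested gene by role, with genes called higher in orange, called lower in blue and not called in grey. Irf7 (2.45) and Ddx60 (2.35) lie above the 3 receptors, and most other genes of the pathway lie near 0.

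The interferon genes at the end of the pathway were too low to be tested. Of 19 genes of type I and type III interferon, 12 had no count in any library. The other 7 summed to 0 and 1 counts in wild type, against 27 and 22 in cKO-labelled libraries. Ifna4 had 20 and 4 counts in cKO-labelled libraries 1 and 2, and Ifnb1 had 1 and 10. Ifna1 had 2 and 3 counts there, Ifna2 had 0 and 4, Ifna5 had 1 and 1, Ifna6 had 1 and 0 and Ifnab had 2 and 0. The only count in wild type was of Ifnb1 in library 2. The limit that a count of 0 allows was 0.153 to 0.173 CPM by library (3 counts, covering counting error only), and reads of the closely similar Ifna genes may be split between them.

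Summed markers of dendritic, T, NK, neutrophil and erythroid cells were higher in both cKO-labelled libraries than in both wild-type libraries. Those of macrophages and monocytes and of stromal and endothelial cells were lower. Of 8 markers of dendritic cells, which express the pathway, 4 were tested and 3 were higher: Flt3 (1.61), Itgax (2.40) and Zbtb46 (0.64). Their summed level was 57 to 58.1 CPM in wild type and 108 to 113 CPM in cKO-labelled libraries. Clec10a and Cd209a had no count in any library, and Clec9a had 1 or 2 in each. Of 8 macrophage and monocyte markers, 5 were tested, with 0 higher and Adgre1 lower, and the summed level was 123 to 128 CPM in wild type and 46.7 to 56 CPM in cKO-labelled libraries. Adgre1 accounts for this fall: it stood at 108 to 110.2 CPM in wild type and 30.3 to 40.3 CPM in cKO-labelled libraries, while the other 7 markers summed to 15.8 to 18.2 CPM and 15.7 to 16.5 CPM. Markers of neutrophils summed to 0.712 to 1.21 CPM in wild type and 2.5 to 3.44 CPM in cKO-labelled libraries, with 1 of 2 tested markers higher (S100a9, 1.67) and Ly6g without a count. Erythroid markers summed to 0.808 to 1.27 CPM in wild type and 3.61 to 3.78 CPM in cKO-labelled libraries, with 2 of 3 tested markers higher (Hbb-bs, 2.25, and Hba-a1, 1.79). T-cell markers summed to 1.22 to 2.02 CPM in wild type and 2.67 to 3.44 CPM in cKO-labelled libraries, and stromal and endothelial markers to 3.29 to 3.51 CPM and 1.15 to 2.72 CPM, with none of the 2 tested markers of either list called. NK-cell markers, too low to be tested, summed to 0.102 to 0.231 CPM and 0.556 to 1.15 CPM. In bulk RNA fewer cells of a type and less RNA per cell cannot be told apart. The part of other cell types in the rise of the receptors was not tested.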

How the data were processed

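RNA was measured in 4 libraries, 2 per genotype. The authors deposited whole-number read counts per gene and FPKM values beside them. The tools named per the submitters' processing notes are HTSeq 0.6.1, HISAT2 2.0.1, cutadapt 1.9.1 and bcl2fastq 2.17.1.14, with build GRCm38. The sources used here give neither their roles nor an annotation release. The deposited FPKM, which the authors scaled by exonic length and library total, differed from values recomputed from the counts by at most 0.0050, and give the levels. Exonic length, in another column the authors deposited, was used as given, so levels, ratios and orders between genes depend on it.

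Counts were fitted in R 4.3.3 by the quasi-likelihood test of edgeR 4.0.16 over all 4 libraries, with TMM factors and genes kept by filterByExpr (at least 10 counts, at least 15 in total). A gene was called where its p, adjusted over 14180 genes by Benjamini and Hochberg's method, was under 0.05. SE is the absolute log2 change divided by the square root of F. The biological coefficient of variation was 6.13%. The fit was tested on simulated data. Alternatives were DESeq2 1.42.0, other scaling, no filter, a replicate block, removal of GC trends, omission of 357 ribosomal rows and leaving out each library. GENCODE M21 gave gene types, GC content and overlaps (99.53% of rows matched).

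Named genes were the 8 members and Adar, up to 4 called genes per direction and role by adjusted p, the most abundant gene not called, interferon genes with a count, and the 3 nearest profiles. Nearest profiles were found for all 8 genes and are given for those with the clearest change. The members, lists and tests were chosen with earlier results of these data known. Of the listed cell type markers, 2 are not reported here.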

Additional observations from a re-analysis of the deposited data

How the results depend on the processing

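Over 11 alternative fits the calls of Ifih1 (1.65 to 1.84 on the log2 scale), Ddx58 (1.16 to 1.35), Dhx58 (1.75 to 1.78) and Trim25 (0.48 to 0.67) were kept. Members called higher numbered 4 to 5, and 4 to 5 when each library was left out. Members called lower numbered 0 to 1 when each library was left out, and 1 with the replicate block, which was Mavs at -0.18 (adjusted p = 0.0456, edgeR). Leaving out each library gave -0.23 to -0.13 for Mavs, -0.12 to 0.11 for Traf3, 0.05 to 0.19 for Tbk1 and 0.12 to 0.36 for Ikbke. The sign of Traf3 turned without wild-type library 1 (0.01) and without cKO-labelled library 1 (0.11). Ikbke did not pass with DESeq2 (0.25), after removal of the GC trend (0.19) or with the replicate block and GC trend removal together (0.19). Pathway genes called lower numbered 10 after removal of the GC trend and 3 to 5 when each library was left out. DESeq2 called 795 genes lower; the cause was not tested. The replicate numbers are not stated to mark a shared mouse or day, and deviations of libraries with the same number correlated at -0.0288 across genes. The block, with 1904 genes higher and 1594 lower, changed no other call of the 8 genes. With 2 libraries per genotype the spread is poorly known, and the interferon genes lie at the limit of depth.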
